A study of Mus musculus with 6 samples.

Results

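The genes examined were 10 enzymes and carriers that build the lipid barrier of the epidermis, chosen by gene symbol from the 17866 protein-coding genes of the table. They were Slc27a4, Elovl4, Cyp4f39, Cers3, Degs2, Pnpla1, Ugcg, Abca12, Alox12b and Aloxe3. All 10 had a row and all 10 passed the filter on low counts. The data were 6 RNA-seq libraries of separated corneal epithelium from C57BL/6 mice aged 6 months, 3 labelled wild type (WT) and 3 labelled Rela-/- (KO). In the study the KO animals were Krt14-Cre; Rela f/f mice, in which a Cre recombinase driven by the Krt14 promoter removes a floxed Rela allele. Rela is the gene of p65, a subunit of the transcription factor NF-κB. The promoter is active in K14-expressing epithelia in general (cornea, limbus, conjunctiva, meibomian gland and skin among them), so the deletion was not restricted to the cornea. The 3 libraries of a group came from independent biological samples, and the alleles of the WT animals are not given in the sources used here. The comparison addresses which genes distinguish the epithelium that covers the cornea of the mutants at this age.

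The outermost layer of the epidermis keeps water in by means of stacked lipid sheets rich in ceramides. Their hallmark is the acylceramide, in which an ultra-long fatty acid is elongated, hydroxylated at its far end, joined to a sphingoid base and esterified with linoleic acid. It is stored as a glucosylated form in lamellar granules, secreted, oxidised by lipoxygenases and finally bound to proteins of the cornified cell. Inherited loss of several of these genes causes congenital ichthyosis, a disorder of scaling skin. The corneal epithelium is stratified but normally not cornified, and it is covered by a tear film.

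In the KO libraries 9 of the 10 genes were higher and none was lower, with Slc27a4 as the gene that did not pass the test. The test was edgeR's quasi-likelihood test with Benjamini-Hochberg adjustment over 13305 genes, and genes with an adjusted p under 0.05 were called. By the same rule 31.8% of all tested genes were higher in KO and 30.2% were lower (62% in all), so a call by itself was common in these data. At the threshold of the study, a fold change of at least 2 and an adjusted p no greater than 0.001, the same 9 genes passed, against 11.6% higher and 8.24% lower among all tested genes. The size of the changes differed more from the rest. A log2 fold change of 3 or more was reached by 8 of the 10 genes and by 6.07% of all tested genes. The median log2 fold change of the 10 genes was 6.67, beside 0.0063 over all tested genes, and it was 4.99 when Degs2, which had no count in WT, was set at its lower bound. In 9 of the 10 genes every KO library lay above every WT library, which was so in 34.7% of all tested genes, while 33.9% had every KO library below WT. Degs2 is included in each of these counts, although some of its reads may belong to Evl, a gene whose span overlaps it. In bulk tissue a larger number of cells that use a gene and more of its RNA per cell cannot be told apart.

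**Figure D1:**
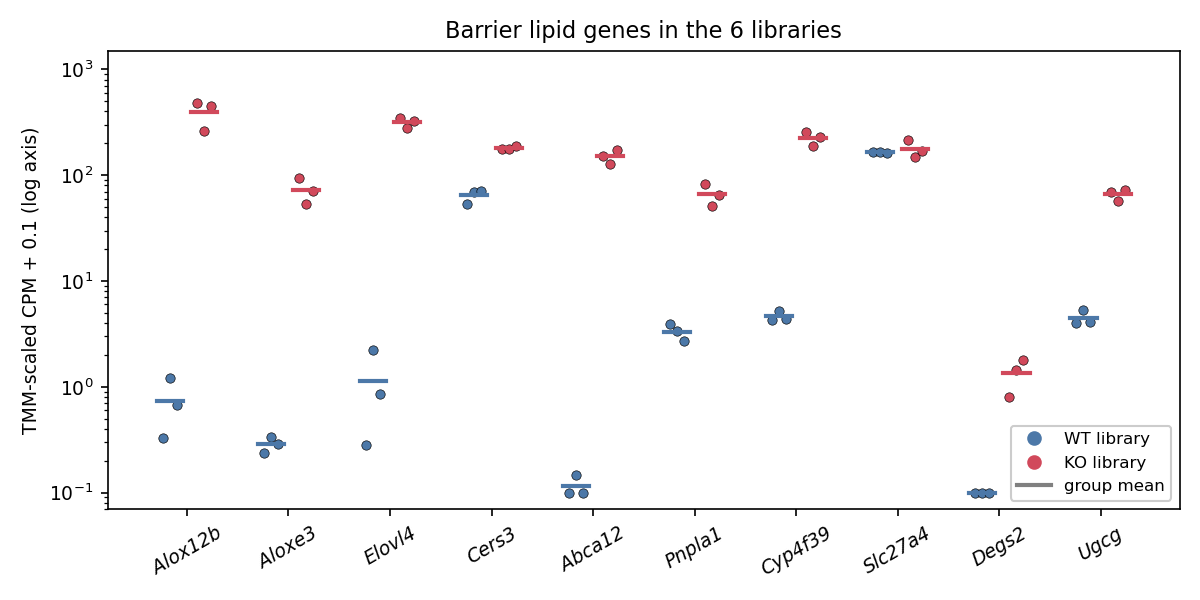
TMM-scaled CPM (counts in a library scaled to a common total of 1000000) plus 0.1, on a log axis, of the 10 barrier lipid genes in each of the 3 WT and 3 KO libraries, with group means as bars. The groups are separate for 9 genes, and for Slc27a4 the KO libraries, at 149 to 217 CPM, enclose the WT libraries at 162 to 166 CPM.

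The targeted gene was first examined in each library. Rela was read 1871, 1844 and 1855 times in the WT libraries, against 318, 223 and 313 times in KO, or -2.60 ± 0.14 as log2 fold change (SE; edgeR adjusted p = 2.74e-06). Library totals lay between 20158404 and 20880347 counts, and 3 counts, the floor used for genes without reads, corresponded to 0.137 to 0.152 CPM. Such floors and the counting intervals below cover counting error only. All 5 tested epidermal keratinocyte markers (Krt1, Krt10, Lor, Flg and Krtdap) were higher in KO, and their summed level with Krt2 was 15.1 to 20.3 CPM in WT and 11563 to 23959 CPM in KO. Krt2 had 0 counts in each WT library and at most 3 in a KO library. The 5 corneal epithelium markers (Krt12, Aldh3a1, Pax6, Slurp1 and Upk1b) were all lower, with sums of 60394 to 62072 CPM in WT and 10778 to 13397 CPM in KO, so defining markers of the labelled tissue were present in every library. Summed markers of lipid-secreting meibomian or sebaceous glands went from 1.42 to 3.12 CPM in WT to 16.2 to 19.8 CPM in KO, with 4 of 5 tested genes higher and Awat1 at 0 in all WT libraries. Goblet cell markers summed to 1.01 to 2.04 CPM in WT and 7.27 to 29.8 CPM in KO (3 of 3 tested higher, Muc5ac and Tff1 at 0 in WT). Fibroblast or keratocyte markers summed to 0.0916 to 1.40 and 5.62 to 9.83 CPM (3 of 3 tested higher, Lum at 0 in WT), endothelial markers to 0.0458 to 0.189 and 0.752 to 0.897 CPM (1 of 1 higher, Kdr at 0 in WT), leukocyte markers to 36.6 to 39.3 and 81.3 to 129 CPM (3 of 4 higher), and melanocyte markers to 7.47 to 9.66 and 5.23 to 5.32 CPM (2 of 3 lower). Most of the WT leukocyte sum was Cd68, at 27.2 to 33.3 CPM, which did not pass (log2 fold change 0.09). Ptprc, Cd74 and Lyz2 rose by 3.69, 3.01 and 7.11 on the log2 scale. The part of these cell types in the changes of the lipid genes was not tested.

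To show the sequences in front of the genes, the RefSeq promoter windows (GRCm38.p6) were searched, from 250 bases before to 50 bases after the start site. A window was found for 9 of the 10 genes, all but Aloxe3. Only 1 window per gene was searched, and other start sites of these genes were not. The windows of Cers3, Pnpla1 and Ugcg lie wholly inside the gene spans printed below. The 250 bases before the start are printed for Alox12b, Abca12 and Elovl4, which were among the largest changes, and for Slc27a4, which did not pass. Capitals mark GC boxes (GGGCGG, or CCGCCC on the other strand), the sites bound by Sp and Klf factors.
Alox12b, chr11:69156822-69157071, plus strand: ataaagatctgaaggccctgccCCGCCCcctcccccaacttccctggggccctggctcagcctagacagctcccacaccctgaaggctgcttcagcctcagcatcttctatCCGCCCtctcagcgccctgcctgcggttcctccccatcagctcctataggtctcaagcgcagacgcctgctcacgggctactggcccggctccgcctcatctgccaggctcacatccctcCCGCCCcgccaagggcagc
Abca12, chr1:71414911-71415160, minus strand: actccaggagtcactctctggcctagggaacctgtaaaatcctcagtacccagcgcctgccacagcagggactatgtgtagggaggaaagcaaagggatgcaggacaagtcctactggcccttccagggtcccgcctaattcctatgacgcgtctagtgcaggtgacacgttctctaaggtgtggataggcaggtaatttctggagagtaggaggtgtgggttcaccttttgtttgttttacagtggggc
Elovl4, chr9:83806306-83806555, minus strand: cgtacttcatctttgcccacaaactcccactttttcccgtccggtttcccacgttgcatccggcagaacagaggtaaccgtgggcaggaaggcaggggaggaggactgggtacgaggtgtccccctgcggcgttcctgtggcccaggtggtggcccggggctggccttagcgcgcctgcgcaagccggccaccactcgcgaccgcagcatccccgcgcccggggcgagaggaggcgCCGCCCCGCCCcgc
Slc27a4, chr2:29802384-29802633, plus strand: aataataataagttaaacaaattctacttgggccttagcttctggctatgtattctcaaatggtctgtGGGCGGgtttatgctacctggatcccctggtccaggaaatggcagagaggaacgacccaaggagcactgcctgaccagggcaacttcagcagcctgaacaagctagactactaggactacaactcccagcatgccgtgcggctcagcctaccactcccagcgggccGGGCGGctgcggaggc
The printed stretch held 3 GC boxes in Alox12b, 2 in Elovl4, 2 in Slc27a4 and 0 in Abca12.

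In the full windows a GC box was present in 5 of the 9 genes (Alox12b, Degs2, Elovl4, Slc27a4 and Ugcg) and in 35.6% of the 32817 mouse windows of this length, with both strands searched. It was thus found both in genes that rose and in the gene that did not pass. No window of the 9 held TATAAA (13.6% of all windows), the AP-1 site TGANTCA (7.81%), the grainyhead site AACCGGTT (0.146%) or the kappaB site, the consensus of NF-κB (8.46%). AGGTCA, the half-site of many nuclear receptors, was in Cers3 alone (16.3% of all windows), and CCAAT was in Elovl4 and Pnpla1 (37.4%). A missing match says only that these letters were not in these windows. Base composition separated the windows more clearly. The ratio of observed to expected CpG was 1.08 in Ugcg and 0.926 in Elovl4, at percentiles 97.6 and 89.3 of all windows. It was 0.308 in Abca12 and 0.295 in Pnpla1, at percentiles 42.7 and 41.3, a little below the median of 0.383. Large rises were therefore present beside both CpG-rich windows and windows near the middle of the range.

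The supply, elongation and hydroxylation of fatty acids held the gene that did not pass and 2 that rose. Slc27a4 (chr2:29802680-29827351, plus strand) encodes a fatty acid transport protein with acyl-CoA synthetase activity, whose loss causes a form of ichthyosis. It had counts of 3619, 3529 and 3414 in WT, and the KO counts were 4283, 2979 and 3388. The groups overlapped, with KO replicate 1 above all WT libraries, KO replicate 2 below them and KO replicate 3 next to them (169 CPM, against at most 166 CPM in WT). Mean levels were 164 ± 2.08 CPM (WT) and 178 ± 34.7 CPM (KO; SD, n = 3). The log2 fold change was 0.12 ± 0.14 (SE; edgeR adjusted p = 0.456), with a 95% interval from -0.19 to 0.43, and without KO replicate 1 it was -0.04. Elovl4 (chr9:83778692-83806305, minus strand) is the elongase that makes ultra-long fatty acids. The WT counts were 4, 46 and 16, and the KO counts 6854, 5563 and 6459, so that WT replicate 2, the highest of its group, was still far below each KO library. Elovl4 rose 308-fold, from 1.03 ± 1.01 to 316 ± 34.4 CPM (SD, n = 3), a log2 fold change of 8.26 ± 0.49 (SE; edgeR adjusted p = 4.2e-06). The fold rested on few WT counts: without WT replicate 2 the log2 fold change was 9.39. The next step is the work of Cyp4f39 (chr17:32452697-32493320, plus strand), a cytochrome P450 and the mouse counterpart of human CYP4F22, which hydroxylates the far end of ultra-long fatty acids. The WT counts were 91, 110 and 91, and the KO counts 5036, 3724 and 4637. All WT libraries lay close together and far below KO. Cyp4f39 rose 49.5-fold, from 4.53 ± 0.51 to 224 ± 34.6 CPM, with a log2 fold change of 5.63 ± 0.16 (SE; edgeR adjusted p = 1.68e-07).

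The genes that assemble the ceramide changed by very different amounts. Cers3 (chr7:66733105-66823692, plus strand) is the ceramide synthase that accepts ultra-long acyl chains. It was already well expressed in WT, with 1159, 1491 and 1510 counts, against 3493, 3552 and 3748 counts in KO. The rise was 2.79-fold, from 64.6 ± 10.1 to 181 ± 5.36 CPM (SD, n = 3), a log2 fold change of 1.48 ± 0.12 (SE; edgeR adjusted p = 2.25e-05). This was the smallest called change of the group and ranked 1534 among the 13305 tested genes by log2 fold change. Degs2 (chr12:108686792-108702306, minus strand) encodes the hydroxylase and desaturase that makes phytoceramides. It had 0 counts in each WT library and 13.64, 27.4 and 33.97 estimated counts in KO, which makes it at least 8.97-fold higher against a floor of 3 counts per library (edgeR adjusted p = 0.000598). The KO level was only 1.25 ± 0.50 CPM. The gene overlaps Evl on the opposite strand and the antisense gene Gm33467. Evl itself had WT counts of 2, 12 and 4 and KO counts of 39.36, 25.6 and 35.03. The KO estimates of both genes are not whole, as arises when reads that match several genes are divided between them. That was so for 31.1% to 32.3% of all estimates in the KO libraries, so it does not single out this pair. Whether the counting used strand is not given in the sources used here, and overlap of exons was not examined. Some of the KO reads of Degs2 may therefore belong to Evl, which was not tested. Pnpla1 (chr17:28852188-28890308, plus strand) is the transacylase that joins linoleic acid to the hydroxylated ceramide. Its estimated counts were 82.62, 69.77 and 55.23 in WT and 1640.87, 1025.27 and 1299.69 in KO. Every KO library lay far above WT, and the rise was 20.6-fold, from 3.22 ± 0.60 to 66.4 ± 15.9 CPM, with a log2 fold change of 4.36 ± 0.22 (SE; edgeR adjusted p = 2.04e-06). Pnpla1 is overlapped by the antisense gene Pnpla1os, so the same limit on strand holds for it.

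Packaging into lamellar granules rests on Ugcg and Abca12. Ugcg (chr4:59189170-59226415, plus strand), the enzyme that adds glucose to ceramide, was read 86, 112 and 85 times in the WT libraries, against 1373, 1124 and 1465 times in KO. It rose 15.1-fold, from 4.39 ± 0.71 to 66.3 ± 8.77 CPM (SD, n = 3), with a log2 fold change of 3.91 ± 0.16 (SE; edgeR adjusted p = 7.8e-07). Abca12 (chr1:71243090-71414910, minus strand) encodes the transporter that loads glucosylceramide into the granules, and its loss causes harlequin ichthyosis. A single read was counted over the WT libraries (0, 1 and 0 counts), against 2991, 2531 and 3468 counts in KO. The ratio of mean CPM was 9700, with an exact 95% counting interval from 1740 to 383159, and the edgeR log2 fold change of 12.77 ± 0.32 (SE; adjusted p = 1.18e-07) ranked 12 among all tested genes. Without WT replicate 2, which held the single WT read, the fitted value was 14.60. Abca12 was therefore the gene of the group with the sharpest contrast, with 1 read over the WT libraries and 150 ± 22.9 CPM in KO.

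The oxidation step showed the next largest changes. Alox12b and Aloxe3 encode the lipoxygenases that act one after the other on the linoleic acid of the acylceramide. They lie on the same strand of chromosome 11, 7874 bases apart, Aloxe3 at chr11:69125525-69149115 and Alox12b at chr11:69157072-69169791. Alox12b had counts of 5, 24 and 12 in WT, and the KO counts were 9401, 5176 and 8977. It rose 618-fold, from 0.638 ± 0.448 to 394 ± 118 CPM (SD, n = 3), with a log2 fold change of 9.26 ± 0.44 (SE; edgeR adjusted p = 1.55e-06). Without WT replicate 2, the WT library with the most reads of the gene, it was 9.94. Aloxe3 had WT counts of 3, 5 and 4 and KO counts of 1862, 1068 and 1413. Its rise was 390-fold, from 0.186 ± 0.048 to 72.8 ± 20.5 CPM, with a log2 fold change of 8.56 ± 0.33 (SE; edgeR adjusted p = 5.65e-07). For both genes KO replicate 2 was the lowest of its group, yet far above each WT library. The next gene of the cluster, Alox8, lies 14140 bases beyond Alox12b on the opposite strand and had estimated WT counts of 27.48, 16.78 and 19.1 and KO counts of 25.99, 16.23 and 29.34. Its groups overlapped, and its log2 fold change was 0.28 (edgeR adjusted p = 0.482). Beside Cyp4f39, Cyp4f17, which lies 12730 bases away, had a log2 fold change of -0.47 (edgeR adjusted p = 0.0893). Some neighbours of other members did pass, in either direction. Among them, 4930539E08Rik beside Pnpla1 had a log2 fold change of 2.26, Ttk beside Elovl4 1.30 and Lins1 beside Cers3 0.64. Adamts17, on the other side of Cers3, had -1.34 and Brpf3, on the other side of Pnpla1, had -0.52.

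**Figure D2:**
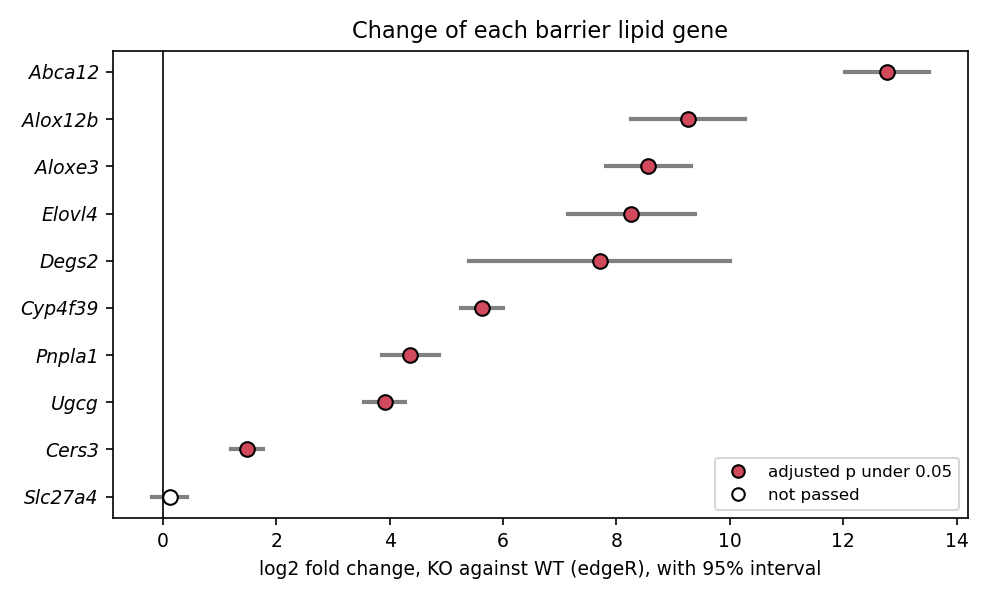
Log2 fold change of each gene, KO against WT, from edgeR, with its 95% interval. The values run from 0.12 for Slc27a4 to 12.77 for Abca12, the plotted intervals of Degs2 and Elovl4 are the widest, and Slc27a4 alone spans 0. These intervals understate the error of genes with almost no WT reads. That of Abca12, with 1 WT read, runs from 12.03 to 13.51, but without WT replicate 2 its value was 14.60. Degs2 had no WT count.

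The levels of the genes against each other were compared in FPKM, which is scaled by gene length. In WT, Slc27a4 led with 41.9 ± 1.39 FPKM and Cers3 followed with 20.4 ± 2.84 FPKM (SD, n = 3). All other genes were under 2.1 FPKM in each WT library, in the order Cyp4f39 (1.82), Ugcg (1.2), Pnpla1 (0.733), Elovl4 (0.343), Alox12b (0.277), Aloxe3 (0.0767), Abca12 (0.0033) and Degs2 (0 FPKM). In this order the values of Pnpla1 and Elovl4 overlapped, as did those of Elovl4 and Alox12b and those of Abca12 and Degs2, and the other neighbours were separate. The KO order was another one. Alox12b led with 161 ± 45.5 FPKM, followed by Elovl4 with 99.1 ± 8.94 FPKM, Cyp4f39 with 83.3 ± 11.2 FPKM, Cers3 with 53.2 ± 1.73 FPKM and Slc27a4 with 42.5 ± 7.56 FPKM. Next came Aloxe3 (27.5), Abca12 (17.2), Ugcg (16.7), Pnpla1 (14.4) and Degs2 (0.863 FPKM). In KO the values of Elovl4 and Cyp4f39 overlapped, as did those of Abca12 and Ugcg and those of Ugcg and Pnpla1, and the other neighbours were separate. Slc27a4, the leading gene of WT, was thus passed in KO by Alox12b, Elovl4, Cyp4f39 and Cers3 while its own mean was nearly the same.

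The genes were then set against the other members of their own families, as shares of the family's summed FPKM in a library. Cers3 made up 25.2% ± 2.50 of ceramide synthase FPKM in WT and 54.3% ± 1.06 in KO (SD, n = 3), whereas Cers2, which makes ceramides of shorter chains, went from 46.5% to 22.0%. Elovl4 went from 0.231% ± 0.226 to 27.6% ± 1.89 of elongase FPKM, and Elovl6 from 28.1% to 5.69%, while Elovl1 held 54.3% and 56.0%. Among the lipoxygenases a different gene led in each group. Alox12 held 83.7% ± 14.6 in WT and 8.38% ± 0.53 in KO, and Alox12b and Aloxe3 together held 0.792% ± 0.592 and 76.5% ± 9.87. Cyp4f39 went from 4.98% ± 1.08 to 83.4% ± 1.24 of Cyp4f FPKM, whereas Cyp4f13 went from 46.6% to 7.63%. Ugcg went from 3.43% ± 0.28 to 38.4% ± 3.02 of the FPKM of enzymes that add a head group to ceramide, beside the sphingomyelin synthases Sgms1 and Sgms2. Pnpla1 went from 1.66% ± 0.37 to 24.1% ± 4.2 of Pnpla FPKM. Degs2 remained a minor desaturase, at 0% in WT and 0.740% ± 0.357 in KO, with Degs1 at 99.3%. The share of Slc27a4 among the fatty acid transport proteins was 70.3% ± 0.88 in WT and 69.1% ± 2.22 in KO. For 7 of the 8 families the shares of the groups did not overlap, and p was 0.1 by the exact permutation test (two-sided), the smallest value possible with 3 against 3 libraries (adjusted p = 0.114 over 8 families). For Slc27a4 the exact p was 0.7. The shares are built from the levels of the same genes, so they are not separate evidence of the rises. With no WT reads, Degs2 has a WT share of 0 whatever its KO level. Separate groups were also common among single genes, with KO above WT in 34.7% of all tested genes and below in 33.9%. FPKM were rounded to 2 decimals, and near-identical genes of a family can share reads.

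**Figure D3:**
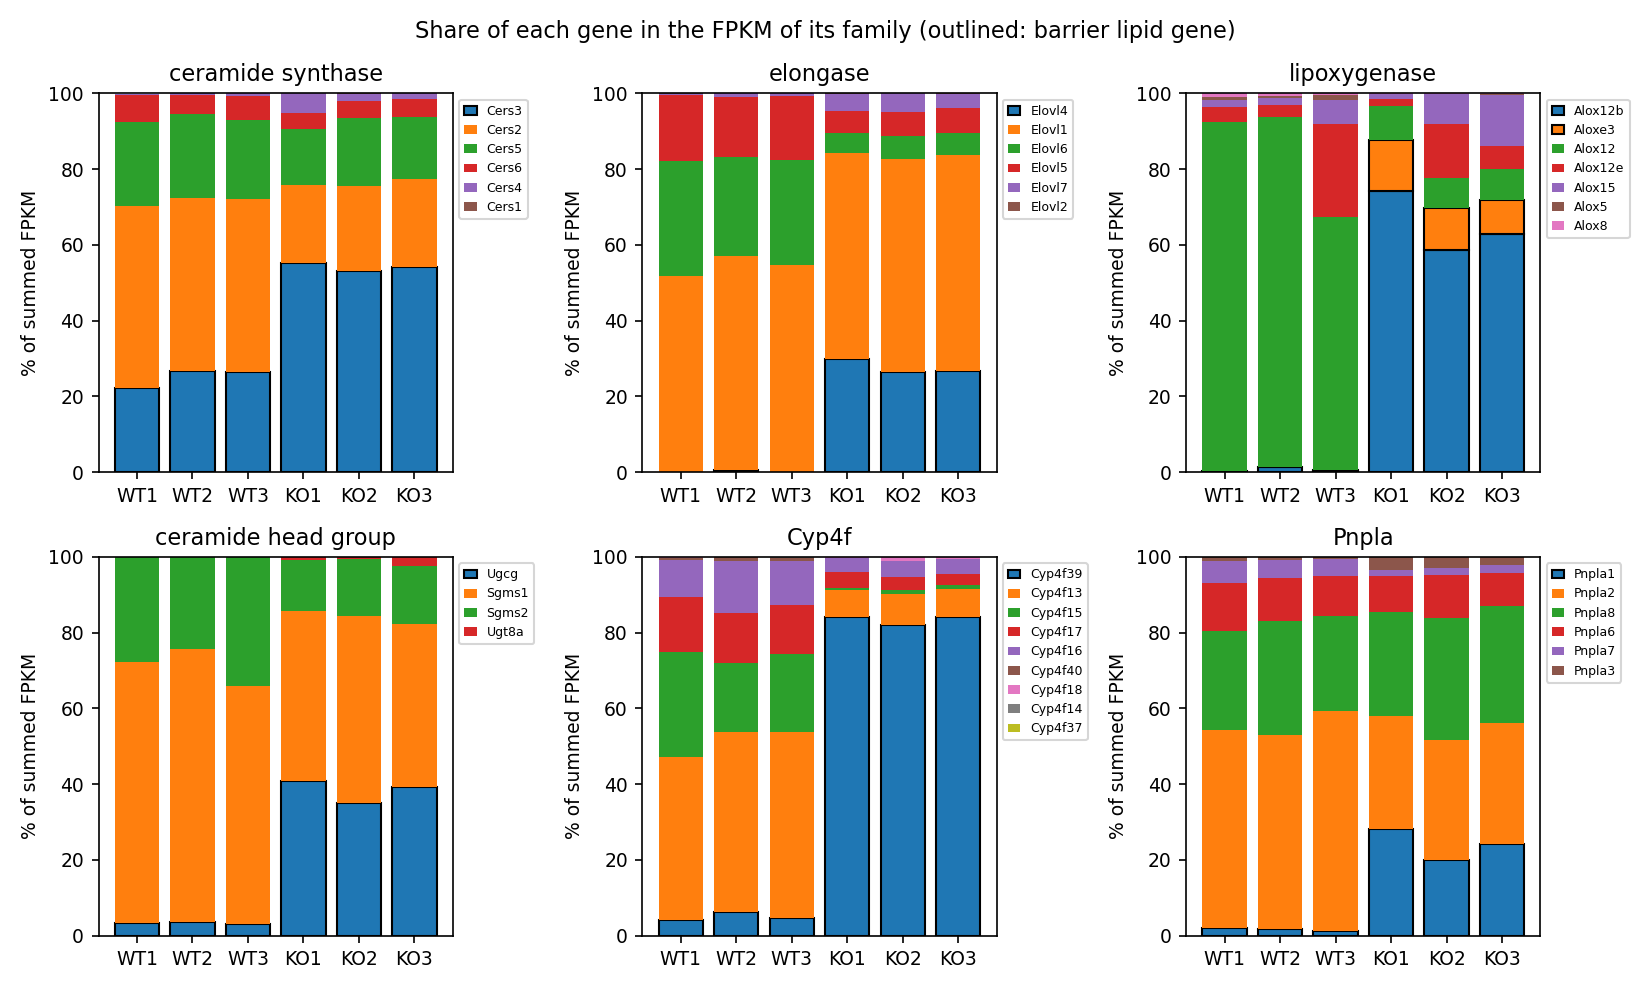
Share of each gene in the summed FPKM of its family (%, vertical axis) in each of the 6 libraries, for 6 families, with the barrier lipid genes outlined. The outlined blocks are small or absent in WT except for Cers3, at 25.2% on average, and reach 24.1% (Pnpla1) to 83.4% (Cyp4f39) in KO.

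The KO libraries did not carry the genes to the same extent. KO replicate 2 was the lowest of the group for 8 of the 10 genes, KO replicate 1 the highest for 6 and KO replicate 3 for 4. How often each library was lowest over all tested genes was not counted, so this order may not be particular to these genes. The 10 genes were also read in the same 3 libraries and are not independent of each other. Summed over the 10 genes, the level was 1871, 1343 and 1738 CPM in the KO libraries and 231 to 251 CPM in WT. The summed epidermal markers had the same library highest and the same one lowest, with 23959, 11563 and 14642 CPM. Krt1 and Krt10 made up most of that sum, and Krtdap went the other way, with 1251, 1417 and 1157 CPM and KO replicate 2 highest. The part of this difference in epidermal markers in the spread of the lipid genes was not tested. The coefficient of variation among KO libraries had a median of 17.5% over the 10 genes (2.97% for Cers3 to 40.0% for Degs2), beside 11.6% over all tested genes. Over the 5 tested epidermal markers the median was 63.8%, but they were mixed, with Krt1, Lor and Flg at or above it and Krt10 (8.75%) and Krtdap (10.3%) below the median of the lipid genes. Cers3 and Degs2 were the exceptions, with KO replicate 1 as their lowest library. Leaving out any single library left 9 of the 10 genes called.

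**Figure D4:**
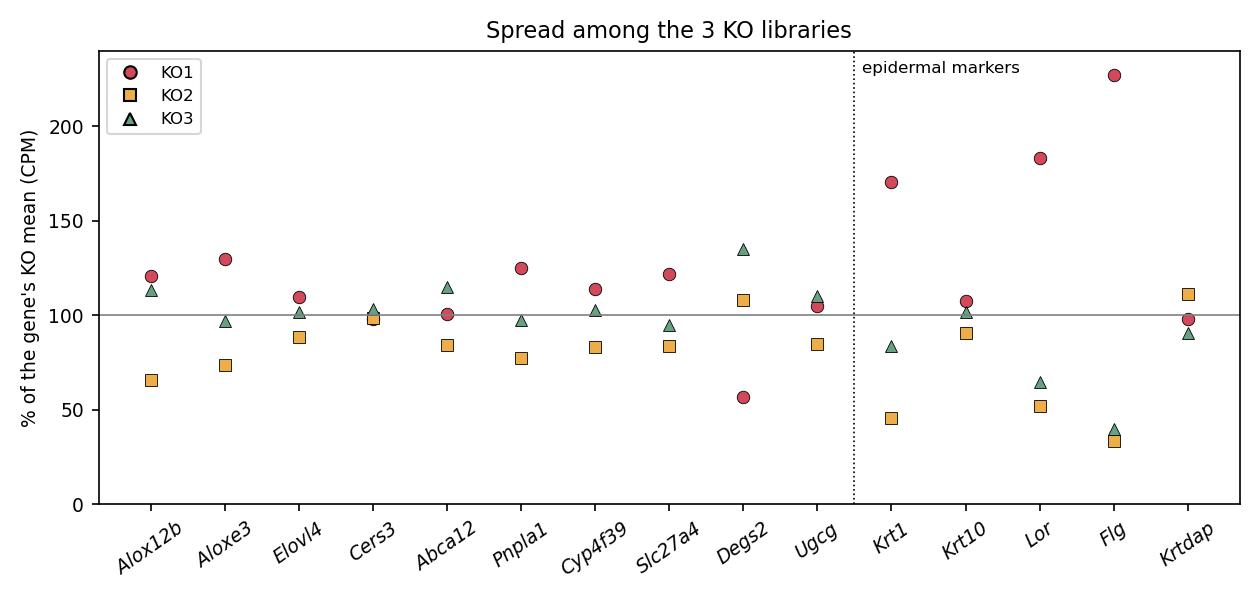
Level of each barrier lipid gene and of 5 epidermal markers in the 3 KO libraries, as % of the gene's own KO mean in CPM. Flg, Lor and Krt1 spread widely, with KO1 on top, whereas Krt10 (8.75%) and Krtdap (10.3%) have small coefficients of variation, as has Cers3 (2.97%).

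Around these genes, other parts of the pathway moved less uniformly. Of 9 tested genes of the fatty acid elongation cycle, 4 rose, 2 fell and 3 did not pass. Over all tested genes 31.8% were higher and 30.2% lower. In this list the median log2 fold change was 0.08. The rises were Elovl7 (4.12), Hacd1 (2.28, at no more than 25.05 counts), Hacd3 (1.70) and Elovl1 (1.40), which elongates saturated chains ahead of Elovl4. The dehydratase Hacd2 and the elongase Elovl6 fell by 0.90 and 0.92 on the log2 scale. Elovl1 was abundant in both groups, with WT counts of 2891, 3263 and 3100 and KO counts of 7458.09, 7052 and 8194.01. The other steps of the cycle, Hsd17b12 and Tecr, had log2 fold changes of 0.08 and -0.19 and did not pass.

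Of 14 tested genes of sphingoid base and ceramide synthesis 8 rose, 2 fell and 4 did not pass, beside 31.8% higher and 30.2% lower over all tested genes. The median log2 fold change of this list was 0.46. The largest changes were in serine palmitoyltransferase, the first enzyme of the pathway. Its subunit Sptlc3 had counts of 6, 5 and 14 in WT, and the KO counts were 735, 527 and 637, a log2 fold change of 6.33 ± 0.29 (SE; edgeR adjusted p = 1.48e-06). The small subunit Sptssb had WT counts of 29, 58 and 92 and KO counts of 3472, 2567 and 2594, with a log2 fold change of 5.70. The groups were far apart for both. The core subunits Sptlc1 and Sptlc2 rose by 0.48 and 0.60 on the log2 scale. Degs1, the main desaturase, rose by 2.53, with WT counts of 679, 810 and 782 and KO counts of 3683, 4912.67 and 3572. Cers2 fell by 0.69 and Ormdl1, an inhibitor of serine palmitoyltransferase, fell by 0.37 on the log2 scale.

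Among 7 tested partners of acylceramide handling 5 rose and none fell, beside 31.8% higher and 30.2% lower over all tested genes. The median log2 fold change of the partners was 1.10. Nipal4, a gene of congenital ichthyosis known as ichthyin, had estimated WT counts of 10.20, 13.12 and 14.16 and KO counts of 1309.05, 857.48 and 971.97 (log2 fold change 6.5 ± 0.24, SE; edgeR adjusted p = 5.35e-07). Sult2b1, the sulfotransferase of cholesterol, had counts of 64, 67 and 73.61 in WT, and the KO counts were 3607.29, 2800.09 and 3528.14 (log2 fold change 5.70 ± 0.15, SE; edgeR adjusted p = 1.26e-07). The enzymes that act after the lipoxygenases moved less: Sdr9c7, a dehydrogenase, rose by 1.60 and Ephx3, an epoxide hydrolase, by 1.10 on the log2 scale. Abhd5, the cofactor of Pnpla1, rose by 0.51. Unlike the lipoxygenases, Sdr9c7 and Ephx3 were well measured in WT, with at least 679 counts in each WT library. The trafficking genes Vps33b and Vipas39, at 0.03 and 0.07, did not pass.

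Of 15 tested genes of ceramide turnover 4 were higher and 5 lower, shares near those of all tested genes (31.8% and 30.2%), with a median log2 fold change of -0.14. Smpd3, a neutral sphingomyelinase, rose by 6.28 and Acer1, an alkaline ceramidase of the epidermis, by 6.02 on the log2 scale. Acer1 had WT counts of 23.39, 22.39 and 22.25 and KO counts of 1518.87, 1395.18 and 1137.71. Smpd1, the acid sphingomyelinase that turns secreted sphingomyelin into free ceramide, rose by 1.45. Psap, the precursor of the saposins that assist lysosomal breakdown of sphingolipids, fell by 0.58, and the largest falls were those of Acer3 (-0.94) and Sphk2 (-0.92). Of 8 tested transcription factors known to act on epidermal genes 3 were higher and 2 lower, again near the shares of all tested genes. Ovol1 rose by 1.64 and Grhl3 by 0.86, whereas Ppara fell by 2.17 on the log2 scale, from 208, 139 and 144 counts in WT to 37, 26 and 38 counts in KO. Ppard passed with a log2 fold change of 0.56 (edgeR adjusted p = 0.0406), but KO replicate 2 lay within the range of the WT libraries in CPM, and Nr1h2 fell by 0.21. Klf4, Zfp750 and Grhl1, at -0.32, -0.20 and 0.21, did not pass. None of these 5 lists had a median log2 fold change above 1.10. For the 10 genes it was 6.67, or 4.99 with Degs2 at its lower bound. Both the 10 genes and the lists were chosen with earlier results of these data known, so the difference between the medians is descriptive only.

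**Figure D5:**
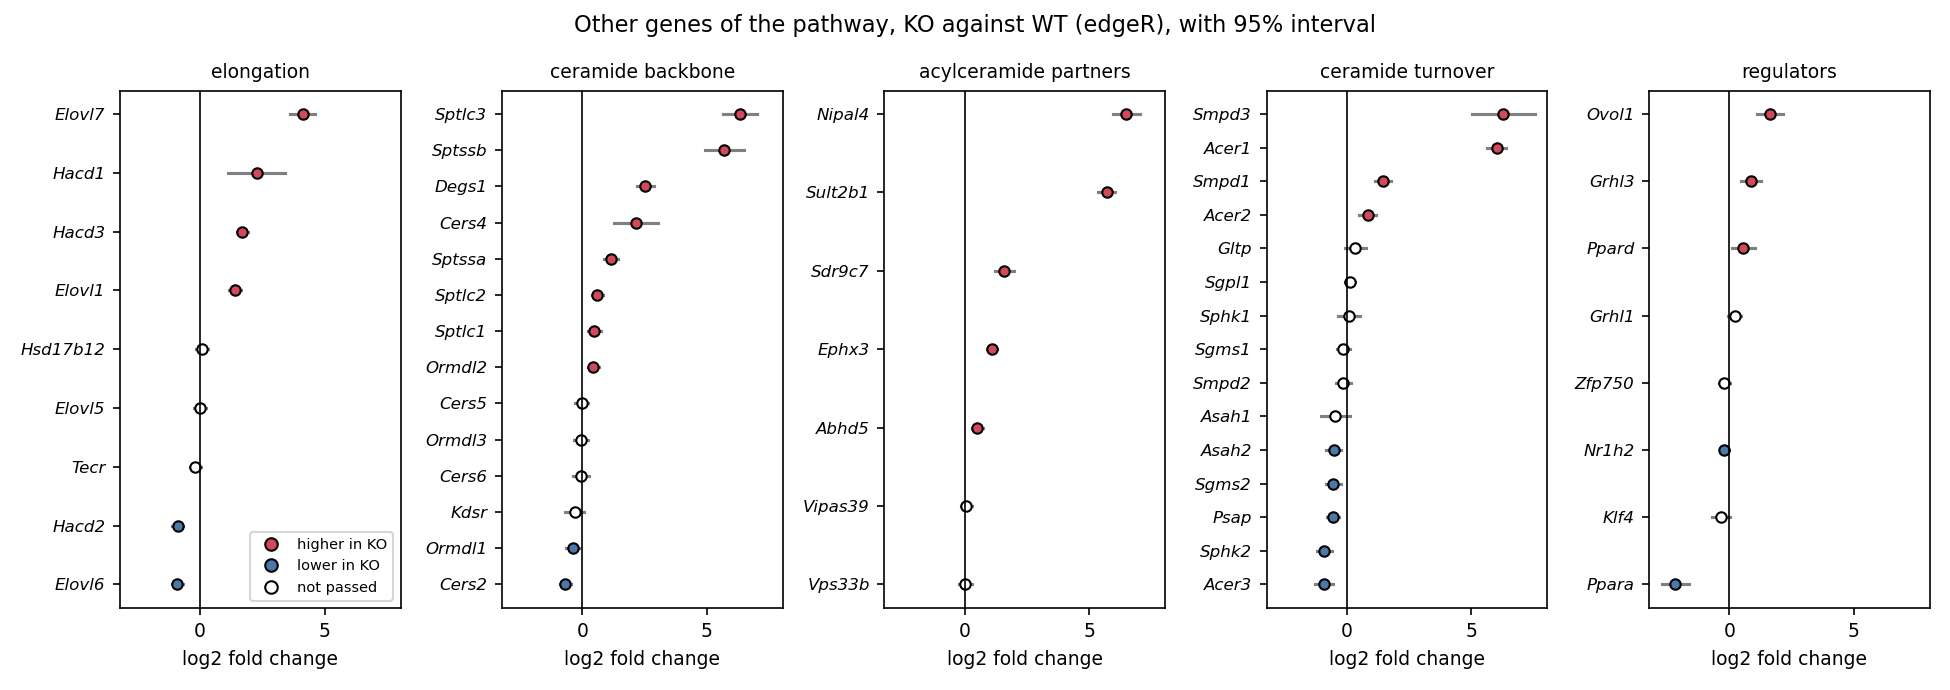
Log2 fold change (KO against WT, edgeR) with its 95% interval for the tested genes of 5 lists around the 10 genes. Rises above 5 occur in serine palmitoyltransferase subunits (Sptlc3, Sptssb), acylceramide partners (Nipal4, Sult2b1) and turnover (Smpd3, Acer1), while the medians of the 5 lists lie between -0.14 and 1.10.

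Annotation terms of the table that the genes share were looked up after their values were known. The KEGG entry for autosomal recessive congenital ichthyosis held 19 genes, among them Abca12, Alox12b, Aloxe3, Cers3 and Pnpla1. Of its other 14 genes 13 were tested, 7 were higher and 3 lower, beside 31.8% and 30.2% over all tested genes. Their median log2 fold change was 1.18. The largest rises were Nipal4 (6.50), Nipal1 (5.98) and Sult2b1 (5.70). Nipal4 and Sult2b1 were already counted among the partners, and Cers2 and Cers4 in the ceramide list, so the entry is not a separate set. Tgm1, the transglutaminase of the cornified envelope, rose by 2.03 and Casp14, the protease that processes filaggrin, by 1.18 on the log2 scale. Nipal3 fell by 1.25 and the protease gene St14 by 0.54. The GO term establishment of skin barrier held 26 genes, of which Abca12, Alox12b and Aloxe3 were 3. Of the 20 others tested 12 were higher and 6 lower, beside 31.8% and 30.2% over all tested genes. Their median log2 fold change was 0.54. The largest rises were Hrnr (14.38, on almost no WT reads), Flg (11.41) and Krt1 (9.64), genes of the cornifying epidermis. The falls included Cyp26b1, which breaks down retinoic acid, by 3.49 on the log2 scale, and Alox12, by 0.80.

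For each of the 10 genes, the tested gene with the most similar course over the 6 libraries was sought, by the root mean square difference of log2(CPM + 1) values centred on their means. Elovl4 was nearest to Cnfn (0.210), Abca12 to Sbsn (0.215) and Alox12b to Lce3b (0.269), all known as genes of late keratinocyte differentiation. Cyp4f39 was nearest to Sult2b1 of the partner list (0.101), Pnpla1 to AU021092 (0.144), Ugcg to Cpne2 (0.132), Aloxe3 to Otop3 (0.172) and Cers3 to Prelid1 (0.0328). Slc27a4 was nearest to Hnrnpa0 (0.0407), a gene with a log2 fold change of 0.13, and Degs2 to Myh1 (0.0689), which had no count in WT either. Within the group, Alox12b and Elovl4 were nearest to each other (0.363), Aloxe3 to Cyp4f39 (0.314) and Pnpla1 to Ugcg (0.269), and no gene had another of the 10 as its nearest gene among all tested. The measure is set mostly by the size of the difference between the groups.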

How the data were processed

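Total RNA came from the separated corneal epithelium of 3 WT and 3 KO biological samples. The methods of the study describe depletion of ribosomal RNA and sequencing of single-end reads of 50 bases on a BGISEQ-500, whereas the labels give an Illumina TruSeq kit. The authors filtered the reads with SOAPnuke, aligned them with Bowtie2 2.2.5 and estimated gene levels with RSEM 1.2.12. The deposited table gives estimated counts, FPKM and TPM per gene and library. The authors scaled FPKM to gene length and sequencing depth, and the deposited TPM, which sum to 1000000, were not tested. Between 30.4% and 32.3% of the estimated counts in a library were not whole, since RSEM divides reads that match several genes. The submitters' processing notes name mm9, but the chromosome accessions of the table are those of GRCm38, whose coordinates are printed. The authors also deposited log2 fold changes, p-values and q-values of their own DESeq2 comparison and group averages, none of which were used. Read quality, isoforms and strand were not analysed here.

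Estimated counts were rounded and tested in edgeR 4.0.16 (R 4.3.3) with TMM factors, filterByExpr, glmQLFit and glmQLFTest, genotype being the only term and 13305 genes passing the filter. Standard errors were the absolute log2 fold change over the square root of F. CPM were scaled by the TMM factors. Totals of 20158404 to 20880347 counts per library set the depth. Replicates are independent samples, so p-values measure the spread between animals or pools of them, which the sources do not distinguish. Shares were compared by an exact permutation test over libraries (scipy 1.17.1). The alternatives were DESeq2 1.42.0, other scalings and filters, limma 3.58.1 on log2(FPKM + 1) and log2(FPKM + 0.1), glmTreat, a length offset, a replicate block and leaving out each library. The fitting script was tested on simulated counts.

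The members, the pathway and marker lists and the tests were chosen with earlier results of these data known. The genes named were the 10 members, and from each pathway list up to 3 rises and 3 falls of largest size among called genes whose groups did not overlap, with the most similar gene per member. Other genes, such as those not passing and those of the annotation terms, were named after their values were seen. Elovl3, Sts, Slc27a2, Pnpla5, Mc5r and Cdh5 of the lists were not analysed here, and a gene of the ceramide turnover list is not reported here.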

Additional observations from a re-analysis of the deposited data

How the results depend on the processing

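The call and the direction of the 9 barrier lipid genes that rose held under each of 17 alternatives in which they were tested. The exception in number was a mean count of at least 50, which leaves 8 genes called because Degs2 is not tested there. Leaving out 1 library gave 9 to 9 calls among the 10 genes. The sizes moved more than the calls. On log2(FPKM + 1), where the pseudocount is not small against the WT level of these genes, the log2 fold change was 4.17 for Abca12, 0.87 for Degs2, 4.70 for Aloxe3, 6.25 for Elovl4, 6.96 for Alox12b, 4.90 for Cyp4f39, 3.13 for Pnpla1 and 3.01 for Ugcg, the lowest of each gene's alternatives. Slc27a4 passed in no alternative, and its log2 fold change of 0.12 became -0.0416 (edgeR adjusted p = 0.699) without KO replicate 1, within -0.0416 to 0.234 on leaving out 1 library and up to 0.275 with the length offset. Against a fold of 1.5 (glmTreat) the calls over all genes went from 8253 to 4048, with 2280 higher and 1768 lower, those of the ceramide backbone list from 10 to 5, of ceramide turnover from 9 to 5 and of regulators from 5 to 2 (4 to 6 under the other alternatives, 4 with the replicate block), as its stricter null hypothesis removes small changes. The difference in share between KO and WT moved to 32.0 percentage points for Elovl4 and 80.8 for Cyp4f39 when CPM replaced FPKM, and to 0.363 for Degs2 with 0.1 added to each FPKM. Scaling by total counts only shifted the median of all genes to -0.09. Leaving out 1 library gave 7282 to 8145 calls over all genes. The replicate numbers of the titles did not pair the samples (correlations of same-numbered deviations 0.0646, -0.0217 and 0.064). With the replicate block 8083 genes were called in place of 8253 and 9 of the 10 genes stayed called, so the pairing changed no call of the group. Depth limits the WT levels of Abca12, Degs2, Aloxe3, Alox12b and Elovl4, which rest on 0 to 46 counts per library.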
